A study of Homo sapiens with 18 samples.

Results

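Intestinal lineage transcription factors are the DNA-binding proteins that set and keep the identity of the gut epithelium, and 8 of them are described here: *CDX1*, *CDX2*, *HNF4A*, *FOXA1*, *FOXA2*, *FOXA3*, *GATA6* and *ATOH1*. They were taken by name, as every non-control spot whose gene name in the scanner output was one of these 8, and they account for 8 of the 36204 gene names on the array, through 10 probes and 19 spots. Expression was profiled on 18 one-colour Agilent arrays, 3 biological replicates for each of 6 groups of cell line and treatment. HT29 is a human colorectal adenocarcinoma line, and HTOXAR3 is its oxaliplatin (OXA) resistant subline, selected in culture under OXA doses that were raised over time; whether HTOXAR3 is a single clone is not given in the sources used here. Cells of each line were left untreated or were treated for 24 h with OXA alone or with OXA plus Curcumin, a polyphenol of turmeric. OXA was used at 10 µM in HT29 and at 30 µM in HTOXAR3, and Curcumin at 10 µM in both, so any comparison of the treated lines, and of their responses, is also one of OXA doses. Both lines were grown as monolayers with no other genetic change by design, and Curcumin alone was not analysed here.

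As background, *CDX1* and *CDX2* encode homeodomain proteins that specify the intestine, and *CDX2* is widely used as a marker of colorectal origin. *HNF4A* encodes a nuclear receptor that drives enterocyte and hepatocyte genes, *FOXA1*, *FOXA2* and *FOXA3* encode winged-helix pioneer factors that open chromatin in gut, liver and pancreas, and *GATA6* encodes a zinc-finger factor of endoderm and of proliferating crypt cells. *ATOH1* encodes the basic helix-loop-helix factor that commits progenitors to the secretory lineage (goblet, Paneth and enteroendocrine cells) and is held down by Notch signalling.

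The probes decide what a level means, so the sequences of 4 of them are shown here 5′ to 3′, with array positions on GRCh37; no GRCh37 gene models were used to place them in exons. The *CDX1* probe that stood for the gene (chr5:149563184-149563243, plus strand) ends in the stop codon TAG, in capitals. The *HNF4A* probe is 60 bases long but its ends lie 6278 bases apart on the genome (chr20:43036102-43042379, plus strand), so it crosses at least 1 splice junction, and the array assigns it to 1 *HNF4A* transcript, and isoforms without these bases are not seen. The *FOXA3* probe (chr19:46376181-46376240, plus strand) carried the widest change among the members well above background on all arrays. The *ATOH1* probe (chr4:94750610-94750669, plus strand) is the sole probe of a gene that gave no signal above background.
CDX1: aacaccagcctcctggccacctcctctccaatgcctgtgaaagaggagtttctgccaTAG
HNF4A: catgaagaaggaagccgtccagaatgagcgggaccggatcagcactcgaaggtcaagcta
FOXA3: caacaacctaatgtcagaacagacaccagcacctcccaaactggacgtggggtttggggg
ATOH1: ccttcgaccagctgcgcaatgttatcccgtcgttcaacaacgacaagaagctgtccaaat

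The other members were read by a *CDX2* probe at chr13:28536302-28536361 (minus strand), a *FOXA1* probe at chr14:38059546-38059605 (minus strand) printed on 10 spots, a *FOXA2* probe at chr20:22562164-22562223 (minus strand) and a *GATA6* probe at chr18:19781793-19781852 (plus strand). *CDX1* and *FOXA1* had 1 further, dimmer probe each. For every gene name the probe with the highest mean over the arrays was used.

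The levels below are log2 intensities after background correction and quantile normalization. They compare arrays for 1 probe and do not rank genes against each other, and in such bulk RNA fewer expressing cells and less RNA per cell cannot be told apart. A difference is the log2 mean of 1 group minus that of another, and its standard error (SE) comes from an empirical Bayesian linear model (limma) over all 18 arrays. A gene was called where its p adjusted over all gene names by the Benjamini-Yekutieli method (BY) was below 0.05 and its fold change was above 1.2. From 52.4% to 63.6% of the spots that carry genes rose well above background on each array, and the lowest share belonged to untreated HTOXAR3 replicate 2, which stood apart again for *CDX2*. Of 11 colon epithelium markers 8 were well above background on all 18 arrays, among them *EPCAM*, *CDH1* and *KRT20*, while *CDH17* was above background on no HTOXAR3 array. Of 8 mesenchymal markers 2 were above background on all arrays and 2 on none. Of these 11 markers 0 were called higher and 3 lower in untreated HTOXAR3, *LGALS4* by -2.08, *VIL1* by -1.61 and the dim *CDH17*. The summed log2 level of the list, in which the bright keratins *KRT18* and *KRT19* weigh most, ran from 19.49 to 19.55 in untreated HT29 and from 19.54 to 19.58 in untreated HTOXAR3. The 3 arrays per group limit the precision of every value.

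Among the 8 members, 5 (*CDX1*, *FOXA1*, *FOXA2*, *FOXA3* and *GATA6*) were well above background on all 18 arrays, *HNF4A* was on 17, *CDX2* on 10 and *ATOH1* on 0. 7 of the 8, all but *ATOH1*, were so on every array of at least 1 group. Of the 8, 4 were called in at least 1 of 11 comparisons. *FOXA3* was called in 7, *GATA6* in 5, *FOXA1* in 4 and *FOXA2* in 1. Single comparisons called from 0.856% to 18.6% of all names. The share of all names called in at least 1 was not computed, so these counts are not read as a trait of the members.

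**Figure D1:**
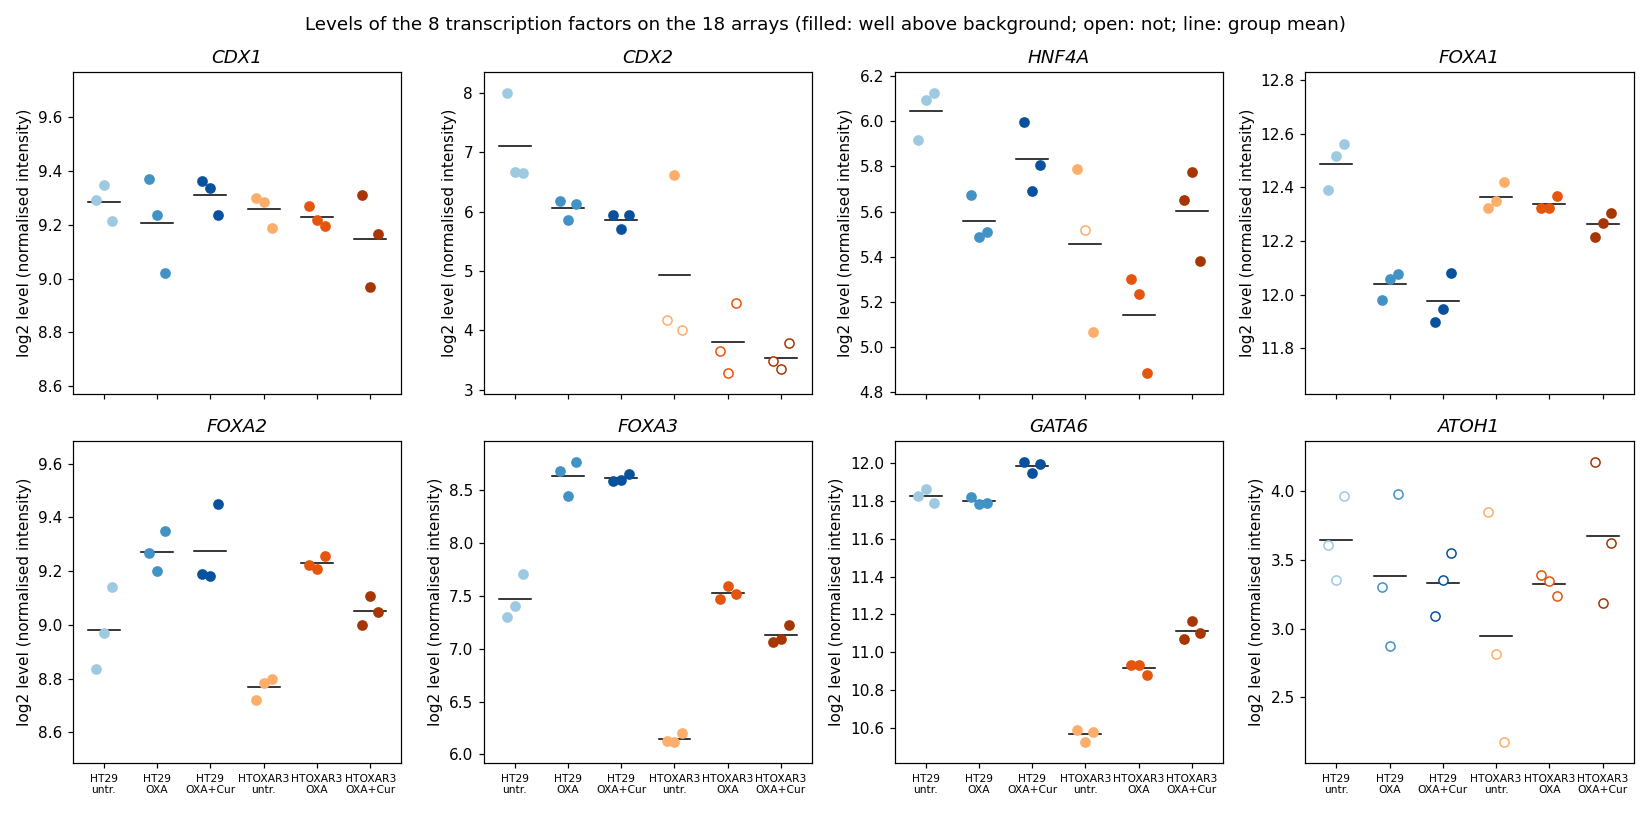
Log2 level of each transcription factor (vertical axis, scaled per gene) on the 18 arrays, 3 per group (horizontal axis); filled points were well above background, open points were not, and lines are group means. *FOXA3* and *GATA6* sat lower on the untreated HTOXAR3 arrays than on every other array, *CDX2* was open on 8 HTOXAR3 arrays, and *CDX1* kept within 8.97 to 9.37.

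The plot of levels by array shows the members' course over the 6 groups. *CDX1* had a log2 level between 8.97 and 9.37 on all arrays, and its 6 group means spanned 0.16. Its level differed between untreated lines by -0.03 (95% interval -0.23 to 0.18). All neighbouring groups in its order of means overlapped. The dimmer *CDX1* probe ran from 3.57 to 5.12 and was above background on 6 arrays. A homeobox gene of the same family, *CDX2*, behaved otherwise.

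*CDX2* levels in HT29 were 7.997, 6.67 and 6.64 untreated, 6.17, 5.85 and 6.13 with OXA and 5.94, 5.71 and 5.95 with OXA plus Curcumin. In HTOXAR3 they were 4.17, 6.62 and 4.01 untreated, 3.66, 3.28 and 4.46 with OXA and 3.49, 3.34 and 3.80 with OXA plus Curcumin. All 9 HT29 arrays were well above background, whereas untreated HTOXAR3 replicate 2 was the sole one of 9 HTOXAR3 arrays that was. The untreated lines differed by -2.17 (SE 0.56, BY adjusted p = 0.142, limma), which did not pass, although their arrays did not overlap. Leaving out 1 untreated array at a time gave -3.01 to -1.71, with adjusted p from 9.19e-04 to 0.742. Of these 6 fits, the one without untreated HTOXAR3 replicate 2 alone called the gene (adjusted p = 9.19e-04). The 2 HTOXAR3 arrays left were not well above background, so the size of the fitted -3.01 is uncertain. Set at the limit described below, they lay 7.86-fold below the mean of untreated HT29, which includes the high replicate 1 (7.997). With OXA, *CDX2* was at least 4.24-fold lower in HTOXAR3 than in HT29 (adjusted p = 0.0963), and with OXA plus Curcumin at least 2.97-fold lower (adjusted p = 0.0795); neither passed. For all 3 folds the dim group was set on each array at the lowest signal that still counted as well above background, or at its own where higher. The HT29 mean was taken as measured, so they are bounds for the dim side only and leave out the spread of the HT29 arrays. With Benjamini-Hochberg adjustment in place of BY, *CDX2* passed between the untreated lines (adjusted p = 0.0128), with OXA (0.00869) and with OXA plus Curcumin (0.00718). The last also passed when fitted with only the 2 groups compared (adjusted p = 0.00815). Among probes well above background on every array of a group, both comparisons of treated lines had an adjusted p below 0.05 (0.0423 and 0.0345), but *CDX2* entered that set through HT29 alone.

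*CDX2* was read from a single spot per array. On untreated HT29 replicate 1 the spot had a mean intensity of 231 with an SD of 106 over its pixels. On untreated HTOXAR3 replicate 2 it had a mean of 106.5 and a pixel SD of 43.6, against means of 32.02 and 30.7 on the other untreated HTOXAR3 arrays. Both spots were uneven, with a pixel SD of 46.0% and 40.9% of the mean, but no array carried an outlier flag there. HTOXAR3 with OXA plus Curcumin replicate 1 reached 41.0% at a mean of 29.9. The part of spot quality in the *CDX2* difference was not tested beyond leaving arrays out.

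**Figure D2:**
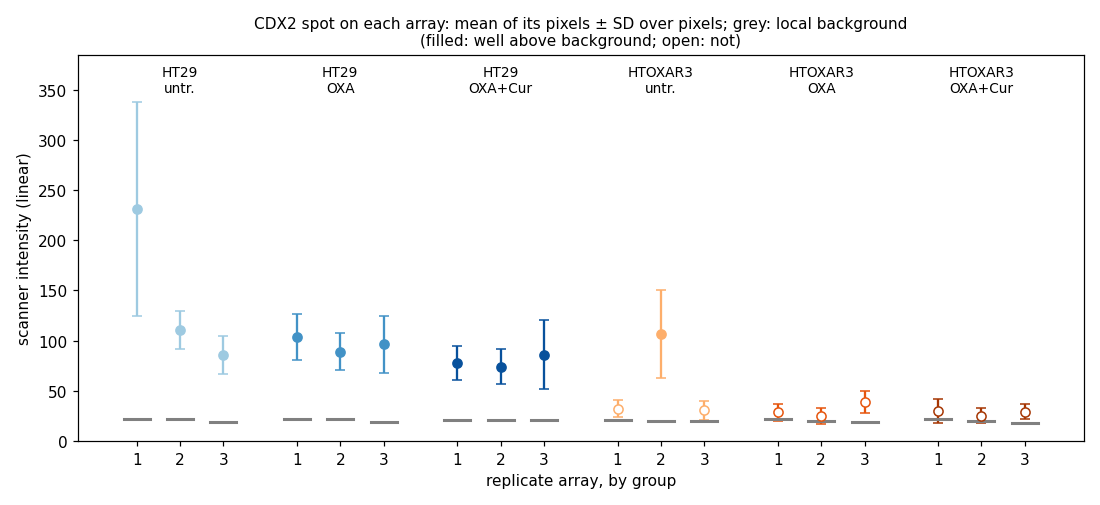
Scanner intensity of the *CDX2* spot (linear, vertical axis) on each replicate array by group (horizontal axis); points are the mean of its pixels, bars the SD over pixels, grey lines the local background, and open points were not well above background. Untreated HTOXAR3 replicate 2, at 106.5, lay near the HT29 arrays and away from the other HTOXAR3 arrays.

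*HNF4A* levels in HT29 were 5.91, 6.09 and 6.12 untreated, 5.67, 5.49 and 5.51 with OXA and 5.99, 5.69 and 5.81 with OXA plus Curcumin. In HTOXAR3 they were 5.79, 5.52 and 5.07, then 5.30, 5.24 and 4.89, then 5.65, 5.78 and 5.38 in the same order of treatments. Untreated HTOXAR3 lay below untreated HT29 without overlap, by -0.59 (SE 0.17, BY adjusted p = 0.256, limma), which did not pass. With Benjamini-Hochberg adjustment it passed (adjusted p = 0.0231), as did the difference of -0.49 with OXA in HT29 (adjusted p = 0.0489). Every neighbouring pair of groups in the order of *HNF4A* means overlapped. *ATOH1* gave readings of 2.17 to 4.21, not well above background on any of the 18 arrays, so no fold is given and its expression was not detectable here.

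The question of the comparison without drug is how the resistant subline differs from its parent. In untreated HTOXAR3, 2 of the 8 members were called, both lower (*FOXA3* and *GATA6*), where 11.5% of all gene names were called. The median difference was -0.64 over the 8 members, -0.59 over the 7 without *ATOH1*, and -0.03 over all names; both member medians rest on values that were not called.

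*GATA6* was read at 11.83, 11.86 and 11.79 in untreated HT29 and at 10.59, 10.52 and 10.58 in untreated HTOXAR3. The replicates were nearly alike within each line, and the lines were far apart. The difference was -1.26 (SE 0.05, BY adjusted p = 2.39e-09, limma), a 2.40-fold lower level. *FOXA3* was at 7.30, 7.41 and 7.71 in untreated HT29 and at 6.13, 6.12 and 6.20 in untreated HTOXAR3. No array of 1 line reached the range of the other, and the difference was -1.32 (SE 0.10, adjusted p = 3.21e-06), or 2.50-fold. *FOXA1* (-0.12) and *FOXA2* (-0.22) were not called between the untreated lines. On the slides that held every group the differences were -1.31 and -1.21 for *GATA6* and -1.29 and -1.51 for *FOXA3*.

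The response to OXA was measured in each line against its own untreated arrays. In HT29, 2 members were called, 1 higher (*FOXA3*) and 1 lower (*FOXA1*), against 15.9% of all names. In HTOXAR3, 3 members were called, all higher (*FOXA2*, *FOXA3* and *GATA6*), against 10.2% of all names. The untreated arrays enter both these responses and the basal difference.

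*FOXA3* was at 8.68, 8.44 and 8.77 in HT29 with OXA and at 7.47, 7.60 and 7.52 in HTOXAR3 with OXA. In both lines every treated array lay above every untreated one. The rise was 1.16 in HT29 (SE 0.10, BY adjusted p = 1.01e-05, limma), or 2.23-fold, and 1.38 in HTOXAR3 (adjusted p = 6.08e-06), or 2.60-fold. The difference of the responses, 0.22 (95% interval -0.09 to 0.53, adjusted p = 1), did not pass. With OXA, HTOXAR3 thus stood at 7.53 ± 0.06 (SD, n = 3) beside 7.47 ± 0.21 in untreated HT29, and these arrays overlapped.

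*GATA6* in HT29 was at 11.82, 11.78 and 11.79 with OXA, with 2 arrays just below the lowest untreated array and 1 inside the untreated range, and differed from untreated by -0.03 (SE 0.05). In HTOXAR3 it was at 10.93, 10.93 and 10.88, above all untreated arrays. That rise was 0.35 (SE 0.05, BY adjusted p = 0.00146, limma), or 1.27-fold. The difference of the responses was 0.38 (95% interval 0.23 to 0.53, adjusted p = 0.0732) and did not pass, though it did under 6 other settings given in the closing section.

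*FOXA1* fell in HT29, from 12.39, 12.52 and 12.56 to 11.98, 12.06 and 12.08 with OXA, with no overlap. The change was -0.45 (SE 0.06, BY adjusted p = 0.001, limma), or 1.37-fold. The further *FOXA1* probe, which the array assigns to another transcript of the gene, gave -0.10 (adjusted p = 1), and the mean of both probes gave -0.27 (adjusted p = 0.104), which did not pass. In HTOXAR3 *FOXA1* was at 12.32, 12.35 and 12.42 untreated and 12.32, 12.32 and 12.37 with OXA, an overlap with a difference of -0.03. The responses differed by 0.42 between the lines (adjusted p = 0.217), which did not pass.

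*FOXA2* was at 8.72, 8.78 and 8.80 in untreated HTOXAR3 and at 9.22, 9.21 and 9.26 with OXA. The groups did not overlap and the rise was 0.46 (SE 0.08, BY adjusted p = 0.0144, limma). This call was lost when any 1 of the 6 arrays was left out (adjusted p from 0.051 to 0.0857), while the rise stayed between 0.44 and 0.48. In HT29 it was at 8.84, 8.97 and 9.14 untreated and 9.27, 9.20 and 9.35 with OXA, a difference of 0.29 (adjusted p = 0.233) that did not pass. The difference of the *FOXA2* responses was 0.17 (95% interval -0.09 to 0.43).

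**Figure D3:**
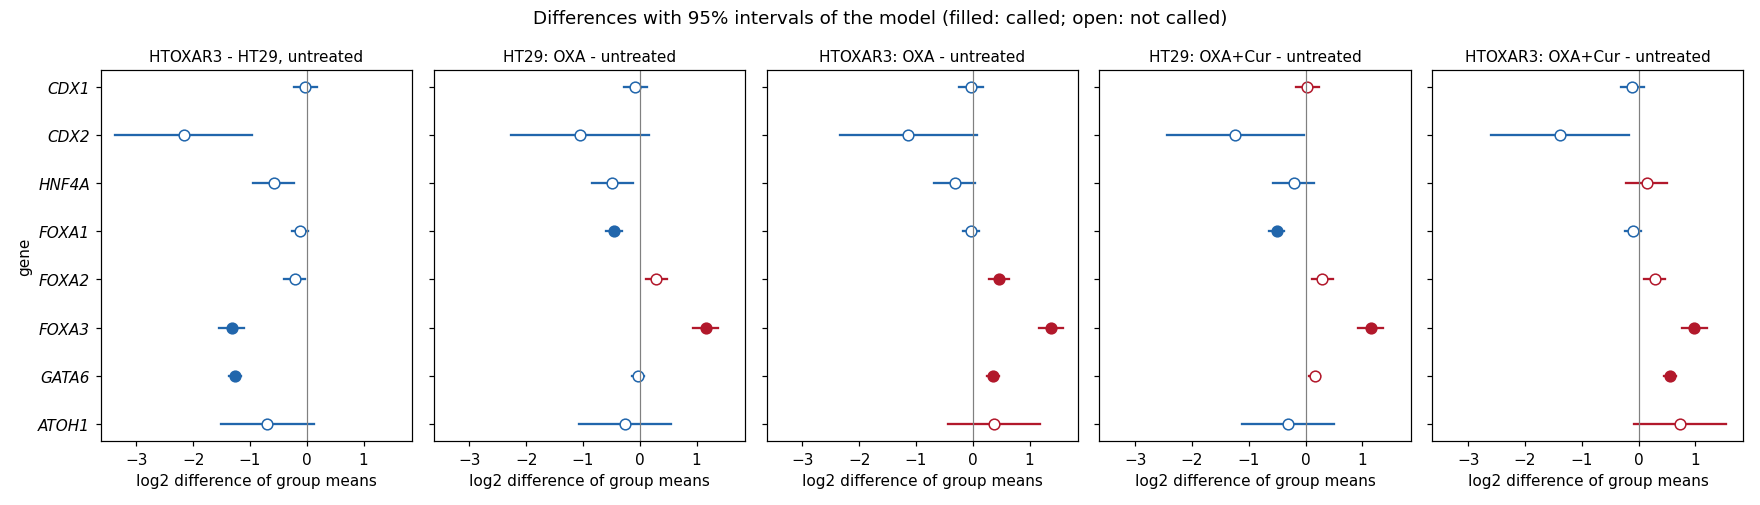
Log2 differences of group means (horizontal axis) with 95% intervals for the 8 transcription factors (vertical axis) in 5 comparisons; filled points were called and open points were not, red is higher and blue lower. *FOXA3* was called in all 5, lower between the untreated lines and higher after each treatment.

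OXA plus Curcumin against untreated cells called 2 members in HT29, where 18.6% of all names were called, and 2 in HTOXAR3, where 17.5% were. In HT29 *FOXA3* was at 8.59, 8.59 and 8.66, a rise of 1.14 (BY adjusted p = 9.41e-06, limma), and *FOXA1* at 11.90, 11.95 and 12.08, a change of -0.51 (adjusted p = 2.51e-04). The further *FOXA1* probe gave -0.21 (adjusted p = 1), which was not called. In HTOXAR3 *FOXA3* was at 7.07, 7.10 and 7.23, a rise of 0.98 (adjusted p = 4.59e-05). *GATA6* there was at 11.07, 11.16 and 11.10, a rise of 0.55 (adjusted p = 1.08e-05), or 1.46-fold. None of these groups overlapped with its untreated arrays. *GATA6* in HT29 was at 12.01, 11.95 and 11.999, above the untreated arrays by 0.16 (adjusted p = 0.267), and the responses differed by 0.39 (adjusted p = 0.0671), which did not pass.

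The addition of Curcumin to OXA was read as OXA plus Curcumin against OXA alone. By limma with BY no member was called, against 5.53% of all names in HT29 and 8.83% in HTOXAR3. At an unadjusted p below 0.05 the counts were 1 and 3 members, beside 8049 and 9286 of 36203 names. With Benjamini-Hochberg (BH) adjustment they were 0 and 1, beside 10.2% and 14.2% of all names. The single BH call was *FOXA3* in HTOXAR3, which lay lower with Curcumin on all 3 arrays (-0.40, SE 0.10, BY adjusted p = 0.143) and was called with slide as a term (adjusted p = 0.0492). In HT29 the *FOXA3* value was -0.02 (95% interval -0.23 to 0.20). *GATA6* was higher with Curcumin on every array in both lines, by 0.19 in HT29 (adjusted p = 0.226) and 0.20 in HTOXAR3 (adjusted p = 0.113), a fold change below 1.2.

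Between the treated lines, which also differ in OXA dose, 3 members were called with OXA (14.1% of all names) and 3 with OXA plus Curcumin (13.9%). *FOXA3* was lower in HTOXAR3 by -1.10 with OXA (BY adjusted p = 1.66e-05, limma) and by -1.48 with OXA plus Curcumin (adjusted p = 9.72e-07). *GATA6* was lower by -0.89 (adjusted p = 8.19e-08) and -0.87 (adjusted p = 1.11e-07). *FOXA1* was higher in HTOXAR3, by 0.30 (adjusted p = 0.033) and 0.29 (adjusted p = 0.0446). The further *FOXA1* probe gave 0.14 and 0.24 (both adjusted p = 1), and the mean of both probes 0.22 (adjusted p = 0.374) and 0.26 (adjusted p = 0.145), none of them called. The call of *FOXA1* with OXA was lost when any 1 array was left out (adjusted p from 0.0695 to 0.159), and that with OXA plus Curcumin when any 1 but HT29 replicate 3 was. With slide as a term *FOXA1* differed by 0.25 (adjusted p = 0.0379) and 0.26 (adjusted p = 0.0177), folds below 1.2, so neither was called.

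For the differences of response between the lines, no member was called by limma with BY, for OXA (1.01% of all names called) or for OXA plus Curcumin (0.856%). At an unadjusted p below 0.05, and with BH adjustment, 2 members passed in each, *FOXA1* and *GATA6*. Of all 36203 names 4944 and 5202 had an unadjusted p below 0.05, and 3% and 3.44% passed with BH adjustment.

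The order of the groups was as follows for the members that were called. *GATA6* ran from HT29 with OXA plus Curcumin (11.99 ± 0.03, SD, n = 3) over untreated HT29 and HT29 with OXA, whose arrays overlapped, to HTOXAR3 with OXA plus Curcumin, HTOXAR3 with OXA and untreated HTOXAR3 (10.56 ± 0.04), all apart from their neighbours. *FOXA3* was highest in HT29 with OXA (8.63 ± 0.17) and with OXA plus Curcumin, which overlapped, followed by the overlapping pair of HTOXAR3 with OXA and untreated HT29, then HTOXAR3 with OXA plus Curcumin, and untreated HTOXAR3 (6.15 ± 0.04). *FOXA1* was highest in untreated HT29 (12.49 ± 0.09) and lowest in HT29 with OXA plus Curcumin (11.98 ± 0.09), with the 3 HTOXAR3 groups between them. *FOXA2* was lowest in untreated HTOXAR3 (8.77 ± 0.04), apart from untreated HT29 (8.98 ± 0.15).

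Over the 18 arrays, among 21796 other gene names that were well above background on every array of a group and had a value on all 18 arrays, the names whose levels ran most like those of *GATA6* were *RIPK4* (Pearson r = 0.995), *GRB10* (0.993) and *SAMD5* (0.992). Those most like *FOXA3* were *SEZ6L2* (0.986), *PAK1* (0.983) and *CYP2S1* (0.982). For *FOXA1* they were *CDKAL1* (0.942), *EPRS1* (0.939) and *TMEM201* (0.939), and for *FOXA2* *CBL* (0.930), *TST* (0.930) and *IRF3* (0.923). The arrays share 2 lines and 3 treatments, so these values describe a common course over the groups only.

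The windows around the transcription starts were read from a set of RefSeq promoters (GRCh38.p14), 250 bases before and 50 after the start. They covered 6 of the 8 members (7 windows, 2 of them for *HNF4A*), and *CDX1* and *FOXA2* had no entry in that set. Letters of 5 motifs were searched on both strands: TTTATNG for CDX factors (in 9.73% of 35116 promoters), CAAAGTC for HNF4A (3.38%), TGTTTAC for FOXA factors (3.42%), AGATAAG for GATA factors (2.68%) and CAGNTGG, an E box that ATOH1 can bind (22.5%). The windows of *GATA6* and *FOXA3*, the members called between the untreated lines, and of *CDX2* are shown with matches in capitals.
GATA6 (chr18:22169339-22169638, plus strand): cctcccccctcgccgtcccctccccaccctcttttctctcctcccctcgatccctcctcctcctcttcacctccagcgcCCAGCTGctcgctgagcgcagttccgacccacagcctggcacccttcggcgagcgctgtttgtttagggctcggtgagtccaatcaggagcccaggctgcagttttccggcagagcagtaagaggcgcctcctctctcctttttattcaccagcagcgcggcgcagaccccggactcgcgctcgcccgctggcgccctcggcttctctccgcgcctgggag
FOXA3 (chr19:45864076-45864375, plus strand): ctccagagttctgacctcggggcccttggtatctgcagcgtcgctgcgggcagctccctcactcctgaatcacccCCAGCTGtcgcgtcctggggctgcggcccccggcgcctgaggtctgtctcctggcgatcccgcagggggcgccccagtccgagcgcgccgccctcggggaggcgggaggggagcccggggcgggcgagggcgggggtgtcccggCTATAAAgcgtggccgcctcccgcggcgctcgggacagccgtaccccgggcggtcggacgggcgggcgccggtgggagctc
CDX2 (chr13:27969266-27969565, minus strand): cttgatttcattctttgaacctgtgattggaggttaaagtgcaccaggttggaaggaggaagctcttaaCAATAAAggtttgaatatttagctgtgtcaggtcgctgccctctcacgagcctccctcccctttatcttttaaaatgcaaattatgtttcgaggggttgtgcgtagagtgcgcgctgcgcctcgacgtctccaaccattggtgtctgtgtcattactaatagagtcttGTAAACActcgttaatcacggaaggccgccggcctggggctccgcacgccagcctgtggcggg

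In the *GATA6* window the E box letters begin at position -171 from the start. *FOXA3* holds E box letters at -175 and CDX letters at -31, and the latter overlap the letters TATAAA of a TATA box. *CDX2* holds CDX letters at -181 and FOXA letters at -13. The upstream *HNF4A* window held an E box match, while its downstream window and those of *FOXA1* and *ATOH1* held none of the 5. A match is a description of letters and not a binding site.

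Genes of the same programmes were followed through lists. Among 33 other gut transcription factors, 5 were higher and 6 lower in untreated HTOXAR3, or 33.3% called beside 11.5% of all names. *PRDM1*, a repressor of the fetal gut, rose by 1.30 (BY adjusted p = 1.69e-04, limma), and the posterior homeobox gene *HOXD13* by 1.80 (adjusted p = 1.95e-07), with 1 untreated HT29 array left out for an outlier flag.

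Among 43 intestinal structural and brush border genes, 0 were higher and 11 lower in untreated HTOXAR3 (25.6% called), with a median difference of -0.38. *LGALS4*, a galectin of the gut epithelium, went from 14.97 ± 0.04 to 12.89 ± 0.06, a change of -2.08 (BY adjusted p = 1.24e-09, limma). *SLC5A1*, the sodium-glucose cotransporter, changed by -1.95 (adjusted p = 1.55e-05), *USH1C*, a scaffold of the brush border, by -1.87 (adjusted p = 6.34e-08), and the peptidase *DPP4* by -1.75 (adjusted p = 8.91e-09). Among 48 lipid, plasma protein and metabolic target genes of HNF4A, 4 were higher and 9 lower (27.1%). They included *AMBP*, a plasma protein precursor (-2.48, adjusted p = 2.52e-08), *TM4SF5*, a tetraspan membrane protein (-1.83, adjusted p = 5.12e-06), and the glucuronosyltransferase *UGT2B7* (-1.60, adjusted p = 7.24e-04), which was above background on 1 of 3 untreated HTOXAR3 arrays, so the size of its change is uncertain.

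The secretory lineage, to which *ATOH1* commits progenitors, was read through a list of other factors and a list of products. Of 23 secretory lineage transcription factors, 1 was higher and 4 lower in untreated HTOXAR3 (21.7%). *ASCL2*, a crypt stem cell factor that was placed in this list, changed from 12.001 ± 0.05 to 8.63 ± 0.09, by -3.37 (BY adjusted p = 3.02e-10, limma). *SPDEF*, which matures goblet and Paneth cells, changed by -0.86 (adjusted p = 4.22e-05), *SOX4* by -0.48 (adjusted p = 0.00712), and the zinc-finger repressor *GFI1* by 0.91 (adjusted p = 0.0145), well above background on 1 of the 3 untreated HT29 arrays, so that the size of its difference is uncertain. Of 29 goblet, Paneth and enteroendocrine products measured, 2 were higher and 5 lower (24.1%). The goblet cell peptide *TFF3* changed by -2.98 (adjusted p = 7.79e-09) and *SPINK4* by -5.18 (adjusted p = 1.95e-07), the latter well above background on 1 of 3 untreated HTOXAR3 arrays, so that its size is uncertain. The gut hormone *CCK* was higher by 1.62 (adjusted p = 1.34e-06) and the Paneth cell phospholipase *PLA2G2A* by 1.49 (adjusted p = 1.75e-06), the latter well above background on 1 of 3 untreated HT29 arrays and of uncertain size.

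In the Notch pathway 8 of 33 genes were higher and 1 lower in untreated HTOXAR3 (27.3%). The ligand *JAG2* was higher by 1.04 (BY adjusted p = 2.51e-07, limma) and the receptor *NOTCH3* by 1.02 (adjusted p = 4.05e-04), while *LFNG*, which glycosylates Notch receptors, was lower by -1.04 (adjusted p = 7.32e-05). Of 20 foregut and stomach genes 3 were higher and 3 lower (30%). The keratin *KRT14* was higher by 1.26 (adjusted p = 1.22e-04) and the gastric trefoil peptide *TFF2* by 0.96 (adjusted p = 1.34e-05), and the gastric mucin *MUC5AC* was lower by -0.90 (adjusted p = 0.0222). The mesenchymal marker *VIM* was higher by 1.30 (adjusted p = 2.50e-04), the sole 1 of 8 mesenchymal markers called (12.5%, beside 11.5% of all names), and the summed level of the mesenchymal list ran from 7.46 to 7.79 in untreated HT29 and from 8.03 to 8.15 in untreated HTOXAR3; its part in these results was not tested.

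**Figure D4:**
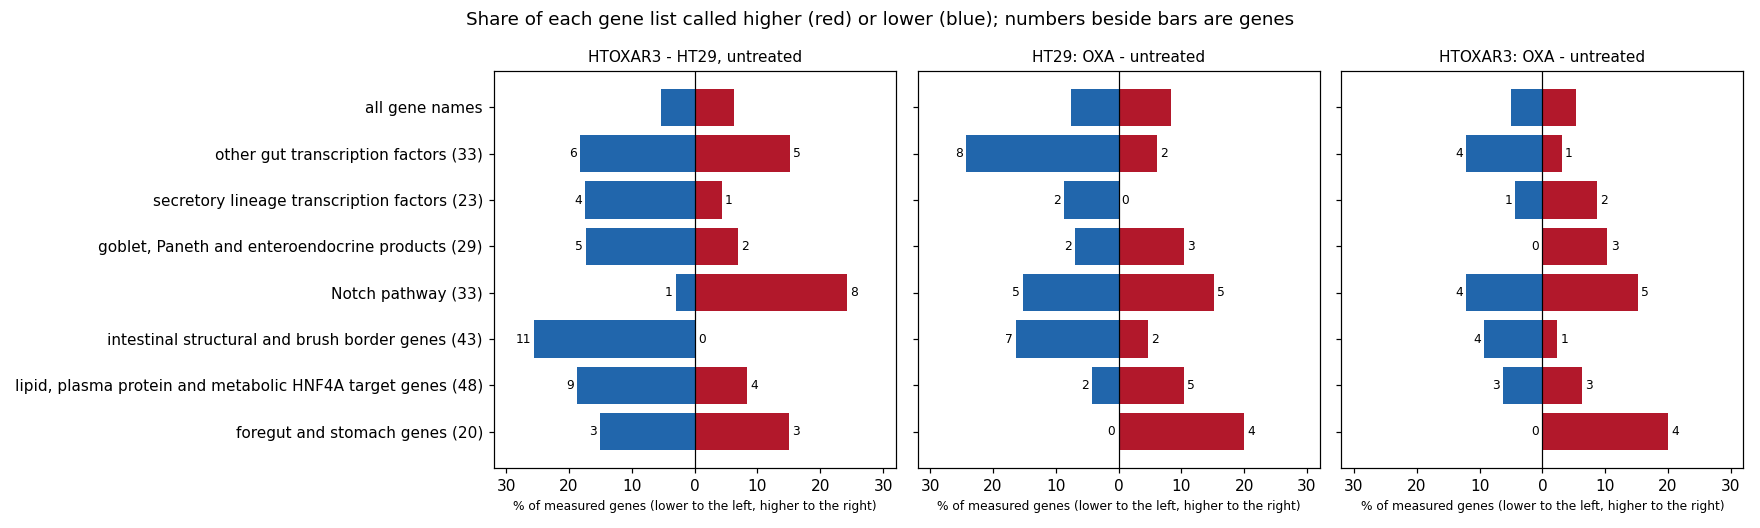
Share of each gene list (vertical axis, with the number of genes measured) called lower (blue, to the left) or higher (red, to the right), in percent, in 3 comparisons, with all gene names on top; numbers beside the bars are genes. Between the untreated lines all 11 called brush border genes were lower and 8 of 9 called Notch genes were higher.

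After OXA the shares called stood beside 15.9% of all names in HT29 and 10.2% in HTOXAR3. Of the other gut transcription factors 2 were higher and 8 lower in HT29 (30.3%), and 1 higher and 4 lower in HTOXAR3 (15.2%). *ONECUT2* fell in both lines, by 1.09 (BY adjusted p = 4.94e-04, limma) and 1.01 (adjusted p = 0.00177). *KLF4*, a factor of differentiated surface cells, rose in both, by 1.08 in HT29 (adjusted p = 0.0026) and 1.18 in HTOXAR3 (adjusted p = 0.00223). *HOXB13* rose by 1.18 in HT29 (adjusted p = 7.80e-06), and its value in HTOXAR3 was 0.45 (adjusted p = 0.0541). Of the 23 secretory lineage factors 0 rose and 2 fell in HT29 (8.70%), and 2 rose and 1 fell in HTOXAR3 (13.0%). Among them *XBP1*, which expands the secretory apparatus, fell by 0.90 in HT29 (adjusted p = 1.48e-06) and 0.76 in HTOXAR3 (adjusted p = 2.03e-05), while *SOX4* rose by 0.73 in HTOXAR3 (adjusted p = 3.00e-04) and its difference in HT29 was 0.26 (adjusted p = 0.357).

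Among Notch genes 5 rose and 5 fell in HT29 with OXA (30.3%), and 5 rose and 4 fell in HTOXAR3 (27.3%). *MFNG*, a glycosyltransferase of Notch receptors, rose by 2.43 (BY adjusted p = 1.51e-08, limma) and 1.38 (adjusted p = 1.02e-05). Of the 29 goblet, Paneth and enteroendocrine products 3 rose and 2 fell in HT29 (17.2%), and 3 rose and 0 fell in HTOXAR3 (10.3%), shares near those of all names. Among them *CCK* rose by 2.93 in HT29 (adjusted p = 3.86e-09) and 1.86 in HTOXAR3 (adjusted p = 1.40e-06). Brush border genes numbered 2 higher and 7 lower in HT29 (20.9%) and 1 higher and 4 lower in HTOXAR3 (11.6%), the last share near that of all names. *SLC5A1* fell by 1.201 in HT29 (adjusted p = 0.00116) and 1.16 in HTOXAR3 (adjusted p = 0.00294). HNF4A target genes numbered 5 higher and 2 lower (14.6%), and 3 higher and 3 lower (12.5%), shares near those of all names.

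When Curcumin was added to OXA, 5.53% of all names were called in HT29 and 8.83% in HTOXAR3. Of the 20 foregut and stomach genes 1 was higher and 5 lower in HT29 (30%), and 1 higher and 4 lower in HTOXAR3 (25%). *KRT14* fell by 1.17 in HT29 (BY adjusted p = 8.13e-04, limma) and 1.00 in HTOXAR3 (adjusted p = 0.00192), and *TFF2* by 1.06 (adjusted p = 2.86e-05) and 0.51 (adjusted p = 0.00717). *GAST*, which encodes the stomach hormone gastrin, rose by 1.60 in HTOXAR3 (adjusted p = 2.44e-04), and its difference in HT29 was 0.68 (adjusted p = 0.202). Of the other gut transcription factors 2 were higher and 1 lower in HT29 (9.09%), and 2 higher and 3 lower in HTOXAR3 (15.2%).

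*ELF3*, an epithelial Ets factor, rose with Curcumin in both lines, by 0.76 in HT29 (BY adjusted p = 3.58e-04, limma) and 0.76 in HTOXAR3 (adjusted p = 2.13e-04). *PRDM1* rose by 0.75 (adjusted p = 0.0418) and 0.82 (adjusted p = 0.0146). *SOX4* fell by 0.76 (adjusted p = 4.38e-04) and 0.74 (adjusted p = 3.62e-04), and *REG4*, a secretory cell lectin, by 0.69 (adjusted p = 0.0231) and 1.14 (adjusted p = 2.99e-04). *CDHR5*, a brush border cadherin, rose by 0.89 in HT29 (adjusted p = 3.74e-05), with a value of 0.33 in HTOXAR3 (adjusted p = 0.0591). *LGALS4* fell by 0.62 in HTOXAR3 (adjusted p = 6.05e-04), with a value of -0.15 in HT29 (adjusted p = 1). Whether the effects of adding Curcumin differed between the lines was not tested.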

How the data were processed

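RNA of 18 cultures, labelled as biological replicates, was hybridised to one-colour Agilent arrays, and the deposited files hold the intensity of each spot as Feature Extraction 10.7.3.1 wrote it, with probe positions on GRCh37. The authors' own normalized values were not used here, because their lines carry no probe names. From the mean and background intensity, control spots aside, normexp correction (offset 0), log2 and quantile normalization were applied with limma 3.58.1 in R 4.3.3; spots with an outlier flag were left out, spots of a probe were averaged, and of 50599 probes the brightest per gene name was kept (36204 names). The 6 groups were fitted in 1 linear model, and calls required a Benjamini-Yekutieli adjusted p below 0.05 over all names and a fold above 1.2. The script was tested on simulated data.

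The members and gene lists were chosen with earlier results of these data known. The genes named from a list were taken from up to 4 with the largest absolute difference between the untreated lines, and up to 2 in each treatment comparison, of those called and bright enough on all arrays of 1 group, of which some are not reported here; *VIM* and *LGALS4* come from the marker lists. Current symbols came from RefSeq. Replicate numbers are shared between groups, but no source describes a pairing. Deviations of same-numbered arrays correlated above 0.1 in every pair for OXA in HT29 (0.245 to 0.371) and for Curcumin added to OXA in HTOXAR3 (0.145 to 0.292), and not in the other comparisons. The arrays lay on 3 slides, of which slide 1 held 2 HT29 arrays alone. Alternatives covered background offset, scaling, probe choice, dim probes, adjustment, fold, arrays fitted, slide, replicate block and leaving out each array.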

Additional observations from a re-analysis of the deposited data

Results flagged for a closer look

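No group had enough arrays for a test of single outlying samples. No response of the 8 transcription factors differed between the lines past the threshold, but some genes of the lists did. The test was the difference of responses (HTOXAR3 minus HT29) in limma with Benjamini-Yekutieli adjustment. The 7 genes given below are a selection and not all that passed. *LGALS4*, for example, also passed for OXA plus Curcumin (-0.65, adjusted p = 0.0419). The OXA dose differed between the lines, and both sets of responses share the untreated arrays.

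For OXA, *MFNG* differed by -1.05 (adjusted p = 0.0147), *CCK* by -1.07 (adjusted p = 0.018), *VIL1* by -0.82 (adjusted p = 0.00448) and *REG4* by 1.21 (adjusted p = 0.0158). In HTOXAR3 the rise of *MFNG* was 1.38, less than the 2.43 of HT29, and that of *CCK* was 1.86, less than 2.93. Mean *VIL1* levels went from 12.06 to 13.12 in HT29 and from 10.45 to 10.68 in HTOXAR3. *REG4* fell by 1.14 in HT29 (adjusted p = 9.93e-05), and its difference in HTOXAR3 was 0.07 (adjusted p = 1).

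For OXA plus Curcumin, *MFNG* differed by -0.97 (adjusted p = 0.0345) and *VIL1*, which encodes villin of the brush border, by -0.82 (adjusted p = 0.00762). *PROC*, the protein C gene, differed by -0.86 (adjusted p = 0.00168), and *NR5A2*, a nuclear receptor of gut and liver, by -0.94 (adjusted p = 0.00264). *CDHR5* differed by -0.65 (adjusted p = 0.0363). Mean levels in HT29 went from 5.88 to 8.15 for *MFNG*, from 12.06 to 13.12 for *VIL1*, from 7.80 to 9.46 for *PROC*, from 8.61 to 8.58 for *NR5A2* and from 9.16 to 9.76 for *CDHR5*. In HTOXAR3 they went from 5.74 to 7.05, from 10.45 to 10.69, from 6.85 to 7.65, from 7.46 to 6.49 and from 8.22 to 8.17 in the same order.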

How the results depend on the processing

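Of the 17 called results of single members, 6 were called under every alternative tried (*FOXA3* between the untreated lines, between both pairs of treated lines, for OXA in HTOXAR3 and for OXA plus Curcumin in HT29, and *GATA6* between the untreated lines). Over 310 recalculations of called results, 266 were called again, 44 were not and 0 turned direction, and 58 of 1691 member values changed sign where neither fit called them. Members called for the difference of OXA responses, and for that of OXA plus Curcumin, went from 0 to 1 with normexp offsets of 16 and 50, with both scalings to the 75th percentile and among probes above background (*GATA6* in each), and to 2 with Benjamini-Hochberg. Benjamini-Hochberg also gave 4 members between the untreated lines (17% of all names) and 4 for OXA in HT29 (21.9%). It gave 3 for OXA plus Curcumin in each line (25% in HT29 and 23.5% in HTOXAR3). For each comparison of treated lines it gave 4 (20% and 19.9%), and it gave 1 for Curcumin added in HTOXAR3 (14.2%). With slide as a term the last comparison also gave 1, while *FOXA1* was no longer called between the treated lines. The mean of all probes gave 1 member for OXA in HT29. A 2-fold minimum left 1 member for OXA in HT29, 1 for OXA in HTOXAR3, 1 for OXA plus Curcumin in HT29, 0 for it in HTOXAR3, and 1 for each comparison of treated lines. With only the groups compared, OXA in HT29 gave 0, OXA in HTOXAR3 gave 1 and OXA plus Curcumin in HT29 gave 1, with fewer arrays behind the spread. On the processed signal *ATOH1* for OXA in HTOXAR3 was -1.24 (adjusted p = 0.019) against 0.38, below background in both groups; the cause was not tested. Leaving out 1 array gave 2 to 3 members between the untreated lines, 2 for OXA in HTOXAR3, 2 between the lines with OXA and 2 to 3 with OXA plus Curcumin. Scaled to the 75th percentile, the median difference of all names ran from -0.19 to 0.15 over the comparisons, against -0.03 to 0.02 in the main fit. The replicate block changed no call of a member; with it, *FOXA3* for OXA in HT29 was 1.16 (adjusted p = 1.27e-05) and for Curcumin added in HTOXAR3 -0.40 (adjusted p = 0.0697), and 2 members stayed called between the untreated lines. Signal near background limits *CDX2*, *HNF4A* and *ATOH1*.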
